A study of Homo sapiens with 8 samples.

Results

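Divergent protein-coding promoters are places where a gene on the minus strand and a gene on the plus strand start back to back and run away from each other. They were found in the GENCODE annotation of hg38 (release 44) as pairs of protein-coding genes on chromosomes 1 to 22 and X that lie on opposite strands, point away from each other, do not overlap and have annotated 5′ ends at most 1 kb apart. This gave 887 pairs at 824 separate loci. They used 1710 of the 19970 protein-coding genes, or 8.56%, and 63 genes belonged to more than 1 pair. The region of a pair ran from 500 bp outside one 5′ end to 500 bp outside the other, with a median length of 1133 bp. The remaining protein-coding 5′ ends, 18195 after removal of duplicates and of ends that touched a pair, served for comparison, each in a region of 1133 bp. The annotated 5′ end is the outermost end of a gene's transcripts and was not measured in these cells.

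The measurements are peak lists from chromatin immunoprecipitation followed by sequencing (ChIP-seq), a method that recovers DNA crosslinked to a protein, in U-2 OS, a human osteosarcoma cell line. Sp1, a zinc finger activator of GC-rich promoters, was pulled down with 1 library for each of 2 rabbit antibodies, and 1 library used normal rabbit IgG. Per the genotype labels these libraries came from cells with V5 and Halo tags knocked into SP1, although their titles call the line parental. CTCF, a zinc finger protein of insulators and loop anchors, was pulled down in replicates 1 and 2 from clone C32, which carries FLAG and Halo tags knocked into CTCF, whereas the series text names wild-type cells. The labels were followed. Every library was crosslinked with 1% formaldehyde for 6 min. The Sp1 and CTCF libraries come from different lines, both edited clones in the paper's methods, so target and line cannot be told apart. The Sp1 antibodies have no replicate, and the lists give no read depth. Intervals in brackets are 95% Wilson intervals for shares and Newcombe intervals for differences. They cover counting error over regions only, and regions are not replicates of a condition.

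A divergent promoter places the start sites of both genes within a short, often nucleosome-depleted stretch from which RNA polymerase II is loaded in either direction. Such promoters usually lack a TATA box, lie in CpG islands and serve housekeeping genes of DNA repair, mitochondria and metabolism, many of them joined to a partner in the same pathway. Sp1 contacts the GC box GGGCGG. CTCF reads a longer element, and its sites are found mostly away from promoters.

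The stretches between the 5′ ends of 8 pairs show the letters at the centre of such promoters. They come from well-studied pairs and from pairs with the highest fold enrichment. All are plus-strand hg38 sequence in lower case, with the first base next to the minus-strand gene's 5′ end. Capitals mark words found on either strand. They are the Sp1 site GGGCGG (called GC box), the NF-Y site CCAAT, the sequence CCGGAA (the core of sites for ETS factors), the TATA box with the letters TATAAA, and the short word AGGGGGC from the CTCF element. The words AAGATGGC (the YY1 core), GCGCATGC (an NRF1 word) and TCGCGAGA were also searched and do not occur in these 8 stretches. A longer GC box, GGGGCGGGG, is not marked separately and occurs at the last GC box of PPAT-PAICS. TK1-AFMID (chr17:78187234-78187357) and PPAT-PAICS (chr4:56435616-56435740) had summits in all 4 lists:
TK1-AFMID: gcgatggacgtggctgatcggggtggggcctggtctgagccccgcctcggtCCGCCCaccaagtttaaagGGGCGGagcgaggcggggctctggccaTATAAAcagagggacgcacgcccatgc
PPAT-PAICS: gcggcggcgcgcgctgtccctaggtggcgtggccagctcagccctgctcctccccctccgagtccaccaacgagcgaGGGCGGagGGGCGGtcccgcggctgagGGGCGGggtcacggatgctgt
SARS2-MRPS12 (chr19:38930764-38930943) had strong CTCF summits beside weak Sp1 summits, and COL4A4-COL4A3 (chr2:227164454-227164623) had no summit in any list:
SARS2-MRPS12: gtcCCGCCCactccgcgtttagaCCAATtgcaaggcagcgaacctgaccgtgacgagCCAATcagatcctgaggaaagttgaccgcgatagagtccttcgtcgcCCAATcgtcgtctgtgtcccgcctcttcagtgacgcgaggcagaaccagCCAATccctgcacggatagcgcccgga
COL4A4-COL4A3: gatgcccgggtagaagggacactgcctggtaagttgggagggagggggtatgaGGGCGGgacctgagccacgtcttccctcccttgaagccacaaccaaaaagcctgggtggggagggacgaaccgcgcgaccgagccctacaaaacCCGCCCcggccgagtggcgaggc
ADAT2-PEX3 (chr6:143450696-143450804) and EIF1AD-BANF1 (chr11:66002177-66002227) were high with antibody 2, and STYXL1-MDH2 (chr7:76048005-76048050) was high with antibody 1:
ADAT2-PEX3: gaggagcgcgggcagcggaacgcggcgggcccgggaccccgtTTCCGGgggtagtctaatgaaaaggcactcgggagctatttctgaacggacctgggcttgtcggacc
EIF1AD-BANF1: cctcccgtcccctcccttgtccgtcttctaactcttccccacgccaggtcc
STYXL1-MDH2: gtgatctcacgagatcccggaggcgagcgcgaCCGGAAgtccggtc
TRAF6-RAG1 (chr11:36510273-36510371) was among the highest with CTCF:
TRAF6-RAG1: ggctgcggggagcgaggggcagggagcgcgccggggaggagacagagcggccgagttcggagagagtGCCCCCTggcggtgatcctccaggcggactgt

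Sp1 peaks were found at most divergent promoters with antibody 1 and at far fewer of the other 5′ ends. A summit of antibody 1 lay in 588 of 887 pair regions, or 66.3% [63.1 to 69.3], against 25.8% of other 5′ ends. With antibody 2 the count was 422, or 47.6% [44.3 to 50.9], against 16.0%. Both antibodies had a summit in 377 pairs, or 42.5% [39.3 to 45.8], against 13.5%, which is 3.14 times as often and a difference of 29.0 percentage points [25.7 to 32.3]. The pair loci cover 0.0327% of the chromosomes examined and held 6.37% of the antibody 1 summits and 6.63% of the antibody 2 summits.

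CTCF differed much less between the same sets. Replicate 1 had a summit in 203 pairs, or 22.9% [20.2 to 25.8], against 16.3% of other 5′ ends, and replicate 2 in 140 pairs, or 15.8% [13.5 to 18.3], against 11.8%. Both replicates had one in 137 pairs, or 15.4% [13.2 to 18.0], against 11.2%, a difference of 4.24 points [1.96 to 6.81]. With every list held to the length of the shortest, the share of pairs was 3.04% and the difference 0.670 points [-0.302 to 2.03]. The CTCF lists are longer, with 42765 and 36082 peaks against 8706 and 5973 for Sp1, yet only 0.454% and 0.383% of CTCF summits fell in pair loci. Summits in all 4 lists were found in 60 pairs, or 6.76%, against 2.32%. The IgG list, with 106 peaks, had a summit in 0 of 887 pairs, an upper limit of 0.431% by the Wilson interval, and in 3 of the other regions. Of the 887 pairs, 200 (22.5%) had no summit in any of the 4 lists.

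**Figure D1:**
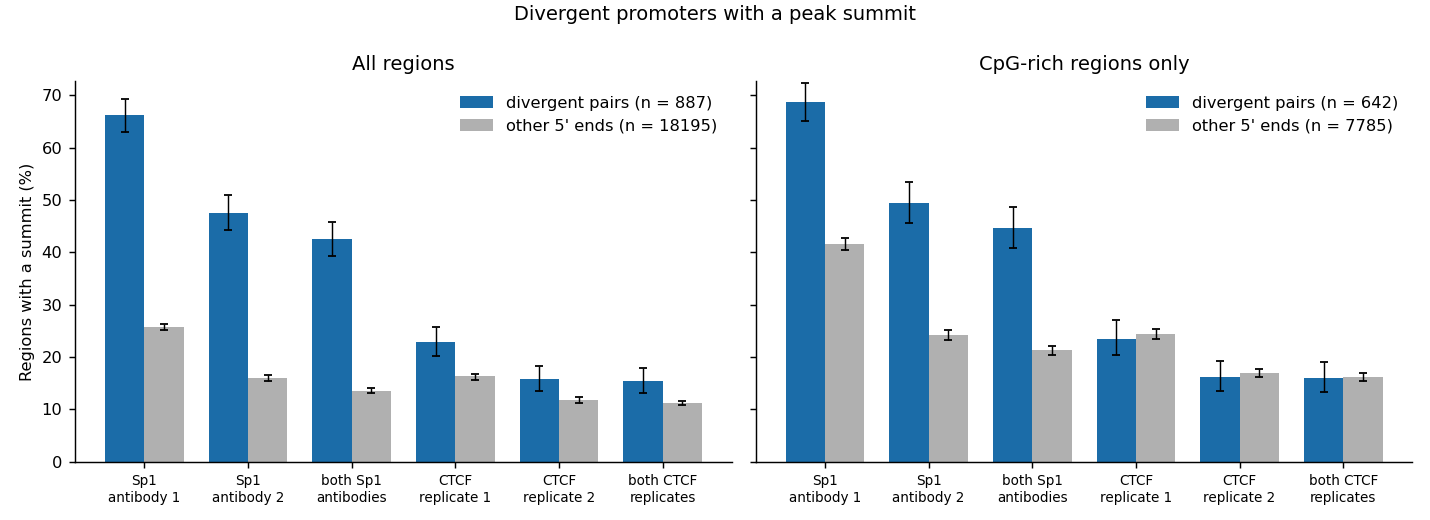
Share of regions (%, vertical axis) with a peak summit in each list or in both lists of a target, for divergent pairs (blue) and other protein-coding 5′ ends (grey), over all regions on the left and CpG-rich regions on the right. Bars are 95% Wilson intervals. Over all regions, both Sp1 antibodies had summits in 42.5% of pairs and 13.5% of other ends, and in CpG-rich regions both CTCF replicates had summits in 16.0% and 16.2%.

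The comparison was repeated within classes of base composition. Pairs were richer in CpG than other 5′ ends, with a median CpG observed over expected ratio of 0.770 against 0.651 and a median GC content of 61.2% against 57.6%. A GC content of at least 55% with a ratio of at least 0.65, here called CpG-rich, held for 642 pairs (72.4%) and 7785 other ends (42.8%). Within CpG-rich regions both Sp1 antibodies had summits in 44.7% of pairs and 21.3% of other ends, a difference of 23.4 points [19.5 to 27.4]. Both CTCF replicates had summits in 16.0% and 16.2%, a difference of -0.129 points [-2.89 to 3.01]. In the remaining, CpG-poor regions the difference was 29.0 points [23.2 to 35.2] for Sp1, with 36.7% against 7.74%, and 6.38 points [2.58 to 11.3] for CTCF, with 13.9% against 7.49%. The CpG-poor sets differ in composition, with a ratio under 0.4 in 28 of the 245 pairs and 5777 of the 10410 other ends.

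Among pairs, Sp1 occupancy was highest at intermediate CpG density. Both antibodies had summits in 1 of the 28 pairs with a ratio under 0.4, in 40.3% [32.1 to 49.1] of 124 pairs from 0.4 to 0.65, in 48.4% [44.2 to 52.6] of 529 pairs from 0.65 to 0.85 and in 34.0% [27.9 to 40.7] of 206 pairs above that. Other 5′ ends were also highest from 0.65 to 0.85, at lower levels, with 0.329%, 12.8%, 24.6% and 16.8%. Unlike in pairs, their class above 0.85 exceeded the class from 0.4 to 0.65. The share of pairs with both CTCF replicates was 10.7%, 15.3%, 15.1% and 17.0% in the 4 classes, and that of other ends was 3.48%, 11.5%, 16.4% and 15.1%. From 0.4 to 0.65 the CTCF intervals of pairs [10.0 to 22.7] and other ends [10.4 to 12.6] overlap.

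Some of the other 5′ ends also face the annotated start of any kind of gene on the opposite strand. Among CpG-rich other ends, both Sp1 antibodies had summits in 26.1% of those with an annotated opposite 5′ end within 1 kb upstream and in 20.4% of those without, a difference of 5.64 points [3.01 to 8.40]. CpG-rich protein-coding pairs exceeded the ends that face another start by 18.6 points [14.0 to 23.2]. For CTCF the corresponding differences were -1.07 points [-3.22 to 1.27] and 0.784 points [-2.63 to 4.39], both with 0 inside the interval. No expression data were used, so whether these sets differ in transcription was not tested.

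The distance between the 5′ ends ran from 1 to 995 bp, with a median of 132 bp and quartiles of 69 and 248 bp. Pairs over 200 bp apart had Sp1 summits more often than closer pairs. Both antibodies had summits in 37.1% of the 342 pairs up to 100 bp apart, in 38.3% of 253 pairs from 101 to 200 bp, in 53.9% of 180 pairs from 201 to 400 bp and in 50.0% of 112 pairs beyond that. Over 200 bp the share was 52.4% and up to 200 bp it was 37.6%, a difference of 14.8 points [7.79 to 21.6]. A wide pair has a longer region, so the count was repeated in windows of 500 bp on each side of the midpoint, where the shares were 48.3% and 37.3% and the difference 11.0 points [4.06 to 17.8]. In these windows the 4 classes had 37.1%, 37.5%, 52.8% and 41.1%, so the widest class was close to the closest one, and its antibody 1 share of 58.9% was below the 61.7% of the closest class. Among CpG-rich pairs the difference was 19.8 points [11.4 to 27.9]. Both checks were chosen after the data had been seen. For CTCF the difference was -0.0512 points [-4.89 to 5.26].

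**Figure D2:**
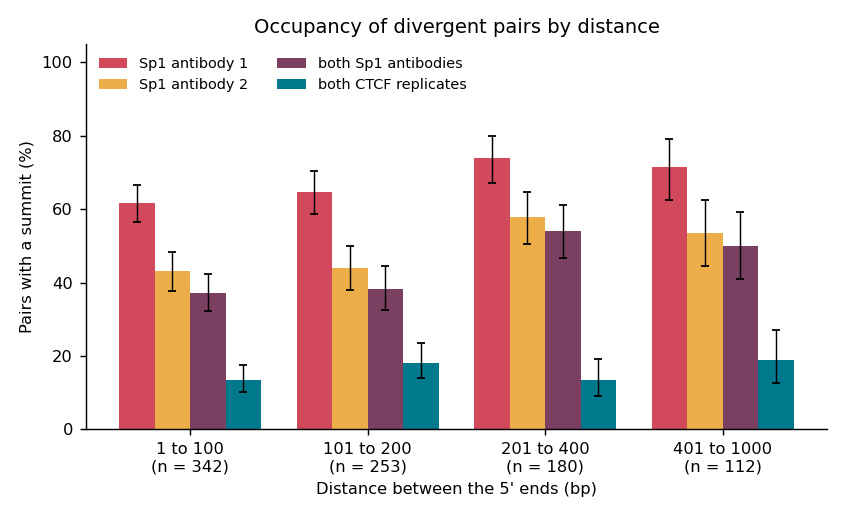
Share of divergent pairs (%, vertical axis) with a summit of Sp1 antibody 1, of antibody 2, of both, or of both CTCF replicates, in 4 classes of distance between the 5′ ends (bp, horizontal axis, number of pairs in brackets), with 95% Wilson intervals. The share with both Sp1 antibodies was 37.1% in the closest class and 53.9% in pairs 201 to 400 bp apart, while the CTCF bars lie between 13.3% and 18.8%.

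Pairs with Sp1 had a single peak in nearly every case, as did other 5′ ends. Of the 588 pairs with antibody 1, 585 had exactly 1 summit, and of the 422 with antibody 2, 421 did. At other 5′ ends the counts were 4678 of 4690 and 2908 of 2912. Even among the 80 pairs with antibody 1 whose 5′ ends lie 401 bp or more apart, 3 had a summit nearer to each 5′ end. With antibody 2 this held for 1 of 60 such pairs. The peak caller gives 1 summit per peak, so adjoining sites within a peak are not resolved.

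Sp1 summits lay between the 5′ ends more often than the length of that interval alone would give. For antibody 1, 58.2% [54.2 to 62.1] of 591 summits fell there, in 17.2% of the region length, a ratio of 3.38. For antibody 2 it was 49.6% [44.9 to 54.4] of 423 summits in 17.6% of the length, a ratio of 2.82. CTCF summits were spread more widely. Between the 5′ ends lay 25.9% [20.3 to 32.3] of 205 summits of replicate 1 and 34.0% [26.8 to 42.1] of 144 of replicate 2, in 18.1% of the length for each, with ratios of 1.43 and 1.88. A summit shared by overlapping pairs was counted once for each pair. The 591, 423, 205 and 144 counts thus stand for 548, 390, 193 and 137 separate summits. The intervals treat the repeats as separate. The median distance from the midpoint was 64.0 bp for antibody 1 and 88.0 bp for antibody 2, and 182 bp and 181 bp for the CTCF replicates. In pairs up to 100 bp apart, 34.6% [28.5 to 41.2] of antibody 1 and 21.8% [15.9 to 29.1] of antibody 2 summits lay in the interval. For CTCF the shares were 6.41% [2.77 to 14.1] and 12.5% [5.86 to 24.7]. The interval makes up 5.03% to 5.30% of the length there. In pairs 401 to 1000 bp apart the lists differed less, with 69.9% and 77.0% for Sp1 and 64.7% and 73.9% for CTCF. The ratios to length were 1.80 and 2.00 for Sp1 and 1.63 and 1.89 for CTCF. At other 5′ ends Sp1 summits also lay closer in than CTCF summits. The median distance to the 5′ end there was 103 and 111 bp for Sp1 and 158 and 148 bp for CTCF.

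**Figure D3:**
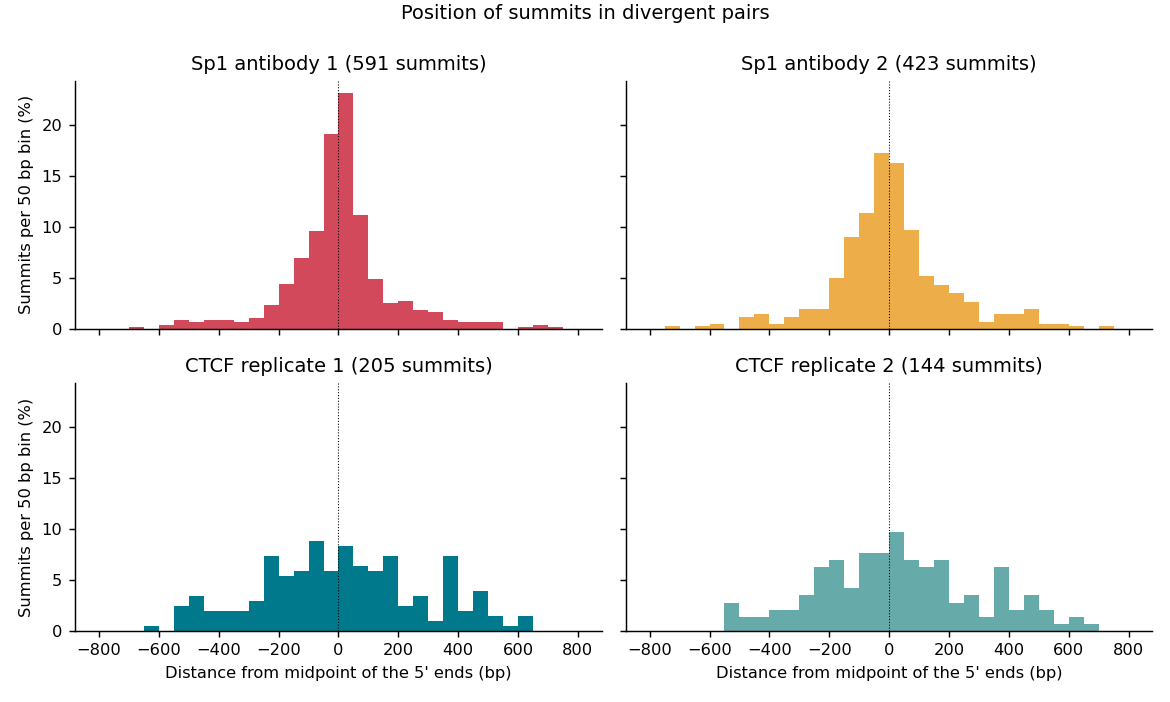
Distance of each summit from the midpoint of the 5′ ends (bp, horizontal axis, negative toward the minus-strand gene) as a percentage of the list's summits in pairs, in bins of 50 bp. A summit in overlapping pairs is counted once for each pair. Sp1 summits of both antibodies pile up at the midpoint, with median distances of 64.0 and 88.0 bp, whereas CTCF summits spread over the region, with medians of 182 and 181 bp.

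The gap between summits was smaller for the CTCF replicates than for the Sp1 antibodies. In the 377 pairs with both antibodies the median gap between their strongest summits was 60.0 bp, and the gap was at most 100 bp in 65.0%. In the 137 pairs with both CTCF replicates the median gap was 9.00 bp, and it was at most 100 bp in 136. Of the pairs with antibody 2, 89.3% [86.0 to 91.9] also had antibody 1, and of those with antibody 1, 64.1% [60.2 to 67.9] also had antibody 2. At other 5′ ends these shares were 84.6% and 52.5%. Replicate 1 was present in 97.9% of pairs with replicate 2, and replicate 2 in 67.5% of pairs with replicate 1.

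The CTCF share differed little between pairs with and without Sp1, and the interval of the difference includes 0. Both CTCF replicates had summits in 60 of 377 pairs with both Sp1 antibodies, or 15.9% [12.6 to 19.9], and in 77 of the other 510, or 15.1% [12.3 to 18.5], a difference of 0.817 points [-3.93 to 5.75]. Without replicate 2 the share of Sp1 pairs with CTCF was 24.4% [20.3 to 29.0]. At other 5′ ends the difference was 6.89 points [5.38 to 8.50], with 17.2% against 10.3%, and among CpG-rich other ends it was 1.75 points [-0.236 to 3.86]. In the 60 pairs with all 4 lists the median gap between the antibody 1 and replicate 1 summits was 214 bp, and it was at most 100 bp in 14. The antibody 1 summit was nearer to the midpoint than the replicate 1 summit in 38 of the 60. It lay between the 5′ ends in 37, and the replicate 1 summit did so in 19.

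Fold enrichment, the peak caller's ratio of pulldown to background at the summit, was slightly higher in pairs than elsewhere for Sp1 and slightly lower for CTCF. The median was 9.66 in pairs and 8.54 at other 5′ ends for antibody 1 and 7.38 and 6.90 for antibody 2. For CTCF it was 13.9 against 17.9 in replicate 1 and 16.7 against 18.6 in replicate 2. All these distributions overlap widely, with quartiles of 6.83 and 15.1 in pairs for antibody 1. Folds are on each library's own scale. Over the 137 pairs with both CTCF replicates the folds had a Spearman's rho of 0.95, and over the 377 pairs with both Sp1 antibodies 0.34. Both are descriptions across pairs, which share the libraries.

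Some pairs were far higher with one antibody than with the other. The median log2 ratio of antibody 1 to antibody 2 was 0.61, with a range from -4.59 to 4.08. In 11 of the 377 pairs antibody 1 was over 4-fold higher and in 32 antibody 2 was. Such counts were not made at other 5′ ends, so they are not shown to be particular to pairs. Overlapping pairs can share the same peaks, so some peaks are counted in more than 1 of these pairs. In those 32 pairs antibody 2 folds ran from 24.5 to 170 with a median of 74.3, while antibody 1 folds ran from 3.51 to 18.3. In the 11 pairs antibody 1 folds ran from 20.7 to 90.2 and antibody 2 folds from 3.61 to 19.2. The summits of the antibodies were within 100 bp of each other in 23 of the 32 and in 8 of the 11.

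**Figure D4:**
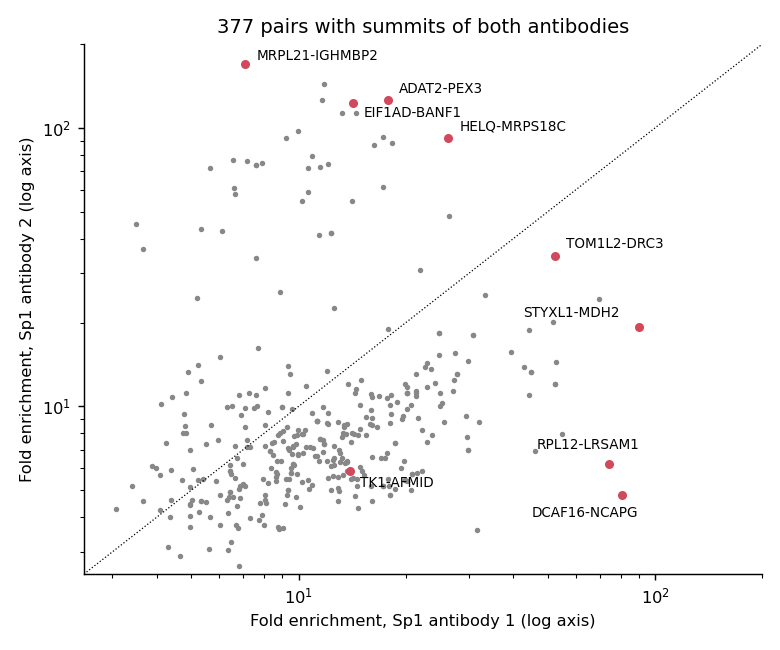
Fold enrichment of the strongest summit with Sp1 antibody 1 (horizontal) and antibody 2 (vertical), both on log axes, for the 377 divergent pairs with summits of both; red points carry their pair's name and the dotted line marks equal fold. The 334 pairs within 4-fold have medians of 11.2 and 7.17, and the 32 pairs high with antibody 2 reach 170 on the vertical axis at antibody 1 folds of at most 18.3.

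These pairs differed in the words of their sequence. ETS factors are a family of activators that bind GGAA-centred sites, and TCGCGAGA is the core of an element bound by BANP in CpG islands. Both words had been singled out in earlier results of these lists, so their place here is a description. Some of the pairs overlap and share sequence, and the intervals count them as separate. The ETS core was present in 30 of the 32 pairs high with antibody 2, or 93.8% [79.9 to 98.3], in 69.5% [64.3 to 74.2] of the 334 pairs within 4-fold and in 7 of the 11 high with antibody 1. TCGCGAGA was present in 7 of those 11, or 63.6% [35.4 to 84.8], in 2.99% [1.63 to 5.42] of the 334 and in 1 of the 32. The long GC box GGGGCGGGG was present in 21.9% [11.0 to 38.8] of the 32 and 48.2% [42.9 to 53.6] of the 334. Over all 887 pairs TCGCGAGA was present in 5.52%, the ETS core in 62.1% and the long GC box in 41.1%. The antibody ratio went with these words at other 5′ ends too. There the median log2 ratio of antibody 1 to antibody 2 was 1.52 with TCGCGAGA and 0.60 without. With and without the ETS core it was 0.51 and 0.82. In pairs the values were 1.88 and 0.58 for TCGCGAGA and 0.53 and 0.77 for the ETS core.

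Pairs were then compared with other 5′ ends for all searched words, on either strand. A match is only a run of letters and not a shown site. The ETS core was present in 62.1% of pairs and 36.7% of other ends, and within CpG-rich regions in 65.4% and 50.3%, a difference of 15.2 points [11.2 to 18.9]. The NRF1 word, from an element of genes for mitochondrial function, was present in 13.9% of CpG-rich pairs and 8.71% of CpG-rich other ends, a difference of 5.15 points [2.61 to 8.11]. For TCGCGAGA the shares were 6.23% and 3.12%, a difference of 3.11 points [1.44 to 5.28], and for the YY1 core 10.6% and 8.00%, a difference of 2.59 points [0.350 to 5.27]. CCAAT, the site of NF-Y, was present in 66.8% and 62.5%, a difference of 4.29 points [0.409 to 7.99]. Pair regions ran from 1002 to 1996 bp and other regions were 1133 bp. Lengths were not matched here, and the part of length in these differences was not tested.

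For the GC box no difference beyond counting error was seen among CpG-rich regions. It was present in 93.0% of pairs and 71.1% of other ends, but in 97.8% and 98.0% of CpG-rich regions, a difference of -0.177 points [-1.65 to 0.763]. The long GC box was less frequent in CpG-rich pairs than in CpG-rich other ends, with 45.6% and 52.7%. TATA boxes were present in 20.3% of pairs and 32.9% of other ends, and in 16.5% and 17.0% of CpG-rich regions. Between the 5′ ends GC boxes stood at 7.18 per kb and in the rest of the pair regions at 3.03 per kb. CCAAT had densities of 3.58 and 0.97 per kb, a ratio of 3.69. In the 132 bp upstream of other 5′ ends CCAAT stood at 2.28 per kb, against 1.13 in the rest of their regions, a ratio of 2.02. For the GC box that ratio was 2.67 at other ends and 2.37 in pairs.

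The mean number of GC boxes per region was 4.58 in the 377 pairs with both antibodies, 4.58 in the 211 with antibody 1 only, 2.56 in the 45 with antibody 2 only and 4.55 in the 254 with neither. Pairs with no GC box at all, of which there were 62, had antibody 1 summits in 41.9% [30.5 to 54.3], against 68.1% of pairs with at least 1, a difference of 26.2 points [13.4 to 38.1], and antibody 2 summits in 38.7% and 48.2%, a difference of 9.53 points [-3.36 to 21.2]. Other words went with differences too. Pairs with an ETS core had antibody 2 summits in 55.5% and pairs without in 34.5%, a difference of 21.0 points [14.3 to 27.4], and for antibody 1 the difference was 13.3 points [6.82 to 19.7]. With and without CCAAT the antibody 1 shares were 71.3% and 54.5%, a difference of 16.7 points [9.77 to 23.7]. For the NRF1 word they were 79.8% and 64.4%, a difference of 15.4 points [6.32 to 22.7], and the antibody 2 shares were 52.3% and 46.9%, a difference of 5.38 points [-4.56 to 15.2]. At other 5′ ends antibody 1 had 26.8% with and 23.4% without CCAAT, and antibody 2 had 28.0% with and 9.06% without the ETS core. By number of GC boxes, antibody 1 had 3.97% of other ends with 0, 24.7% with 1 or 2, 41.3% with 3 to 5 and 39.7% with 6 or more. In pairs these shares were 41.9%, 66.2%, 72.8% and 65.0%. Antibody 2 had 3.40%, 18.1%, 25.9% and 19.3% of other ends in the same classes. CCAAT was present in 57.6% of pairs up to 100 bp apart and 85.7% of pairs 401 to 1000 bp apart. Antibody 1 had summits in 61.7% and 71.4% of these. No word was compared within classes of distance or CpG here.

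**Figure D5:**
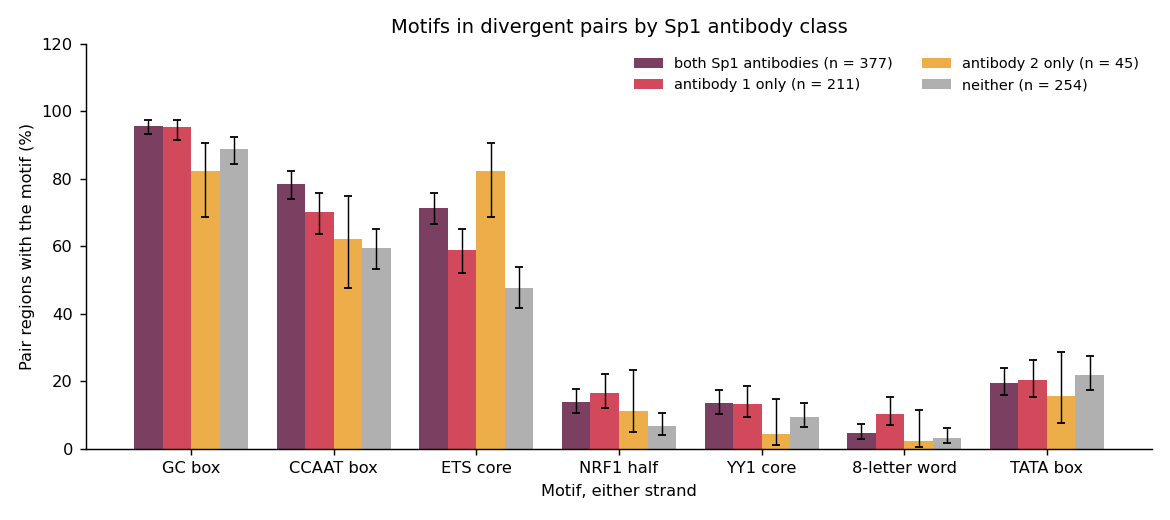
Share of pair regions (%, vertical axis) with each word on either strand, in pairs with both Sp1 antibodies, antibody 1 only, antibody 2 only or neither, with 95% Wilson intervals; the 8-letter word is TCGCGAGA. GC boxes were present in 82.2% to 95.8% of all 4 classes, whereas the ETS core was present in 82.2% of pairs with antibody 2 only and 47.6% of pairs with neither.

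Words from the CTCF element were searched too. The 12-letter CTCF core was found in 5 pairs (0.564%), of which 3 had summits of both replicates, and in 1.18% of other ends, of which 73.8% had them. The short word AGGGGGC, added after the data had been seen, was present in 45.3% of pairs and 37.4% of other ends. Both CTCF replicates had summits in 17.9% [14.5 to 22.0] of pairs with it and 13.4% [10.7 to 16.7] of pairs without, and these intervals overlap. At other 5′ ends the shares were 15.0% [14.2 to 15.9] with the short word and 8.93% [8.42 to 9.47] without.

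Pairs in which both genes or one gene belong to a known pathway were read against all pairs, of which 66.3% had antibody 1 summits and 42.5% summits of both antibodies. Of 47 pairs with a gene of DNA repair or replication, 33 had antibody 1, 27 antibody 2, 23 both and 5 both CTCF replicates. The sliding clamp pair PCNA-CDS2 had folds of 19.5 and 9.04 with the Sp1 antibodies and of 33.8 and 10.7 with CTCF, whose summits, at positions 5126537 and 5126841 of chromosome 20, are separate peaks. BRCA1-NBR1, with the homologous recombination gene BRCA1, had 6.28 and 4.63 and no CTCF summit. POLE-PXMP2, with the leading-strand polymerase gene, had no summit in any list. These 3 were chosen after their values were seen.

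Genes of mitochondria and protein quality control form 3 further groups. Antibody 1 had summits in 15 of 18 pairs with a mitochondrial ribosomal protein gene, 19 of 26 with an oxidative phosphorylation gene and 17 of 20 with a chaperonin or proteasome gene. These are shares of 83.3%, 73.1% and 85.0%, beside 66.3% of all pairs. Antibody 2 had summits in 8 of 18, 11 of 26 and 7 of 20, each a smaller share than the 47.6% of all pairs. Both antibodies had summits in 44.4%, 34.6% and 35.0% of the groups, beside 42.5% of all pairs. The intervals of groups this small are wide, and no group was tested against the rest. Of 5 pairs with a gene of nucleotide or folate metabolism, 4 had both antibodies and 2 both CTCF replicates. DTYMK-ING5, with thymidylate kinase, had no summit in any list. TK2-CKLF and TK2-CKLF-CMTM1 share the mitochondrial thymidine kinase gene and the same summits, at folds of 17.3 with antibody 1 and 5.20 with antibody 2. Of 3 pairs with an aminoacyl-tRNA synthetase gene, LYRM4-FARS2 had only antibody 1, at 14.1, RARS2-ORC3 only antibody 2, at 4.56, and SARS2-MRPS12 had all 4 lists.

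Sp1 summits were found in a smaller share of histone pairs than of all pairs, though the group is small and was not tested. Of 15 pairs with a replication-dependent histone gene, 14 had a named histone gene on both sides, and in 12 of these an H2A gene faced an H2B gene. Antibody 1 had summits in 5 of the 14, antibody 2 in 5, and neither CTCF replicate had any. Over all pairs the shares were 66.3% and 47.6% for the antibodies and 15.4% for both CTCF replicates. At other 5′ ends they were 25.8%, 16.0% and 11.2%. All 14 regions held CCAAT, 11 held a TATA box and 12 a GC box. The highest Sp1 folds among the histone pairs were those of H2BC21-H2AC20, at 9.06 and 8.17, chosen after their values were seen. The medians over all pairs with a summit were 9.66 and 7.38. Type IV collagen chains of basement membranes are encoded by COL4A4-COL4A3 and COL4A6-COL4A5, and neither pair had a summit in any list. The former region held 3 GC boxes and the latter none. The pairs with an olfactory receptor gene, OR11A1-OR2H1 and TRIM5-OR56A3, had none either.

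Of 16 pairs on a preset list, 9 met the rule. In the other 7 the annotated genes overlap. Several of these 7 also have 5′ ends over 1 kb apart, from 1345 bp at COL4A1-COL4A2 to 27658 bp at ACAT2-TCP1. TK1-AFMID joins cytosolic thymidine kinase to arylformamidase. Its folds were 13.9 with antibody 1, 5.86 with antibody 2, and 45.5 and 31.9 with the CTCF replicates. The antibody 1 summit lay 49 bp from the TK1 5′ end, just before the GC boxes that start at 52 and 71 bp, and the antibody 2 summit lay at 122 bp, while both CTCF summits lay inside TK1, at -58 and -56 bp. PPAT-PAICS encodes enzymes of purine synthesis. Its folds were 17.0, 6.54, 5.39 and 5.14 in the same order. Its antibody 2 summit, at 89 bp, fell within the GC box from 86 to 91 bp, and the antibody 1 summit lay at 134 bp, past the PAICS 5′ end.

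SARS2-MRPS12 encodes mitochondrial seryl-tRNA synthetase and a protein of the mitochondrial ribosome. Its folds were 6.86 and 4.69 for Sp1 and 141 and 122 for CTCF. The interval printed above held 4 CCAAT words in the same direction and 1 GC box, and the CTCF summits lay at -274 and -263 bp from the SARS2 5′ end, inside that gene. NPAT-ATM joins an activator of histone transcription to the DNA damage kinase. It had folds of 8.69, 5.72, 43.3 and 20.4, with the Sp1 summits at 135 and 17 bp from the NPAT 5′ end and the CTCF summits at 381 and 383 bp, next to ATM. SIRT3-PSMD13 had Sp1 folds of 7.24 and 11.2, with summits inside SIRT3 at -161 and -276 bp, and no CTCF summit. TMEM258-FEN1, with the flap endonuclease gene, had only antibody 2, at 4.90. PRKDC-MCM4, with 5′ ends 7 bp apart, had no summit.

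Of the 5 pairs with the highest geometric mean Sp1 fold, 4 were much higher with one antibody than with the other. ADAT2-PEX3, with a peroxisome assembly gene, had 17.8 with antibody 1 and 126 with antibody 2. The summits lay at 56 and 38 bp from the ADAT2 5′ end, around the ETS core at 43 to 48 bp, and the region held 0 GC boxes. EIF1AD-BANF1 had 14.2 and 123, with none of the searched words in its interval but 4 ETS cores and 1 GC box in the region. HELQ-MRPS18C had 26.3 and 91.8, again with 2 ETS cores and 0 GC boxes. STYXL1-MDH2, with malate dehydrogenase, turned the other way, with 90.2 and 19.2, and its region held 3 ETS cores, 2 GC boxes and 1 TCGCGAGA. TOM1L2-DRC3 was high in both, at 52.3 and 34.8, with 6 GC boxes and 6 CCAAT words.

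At the extremes of the antibody ratio the summits either coincided or lay apart. DCAF16-NCAPG, with a condensin gene, had 80.8 with antibody 1 and 4.79 with antibody 2, with the summits at 153 and -333 bp from the DCAF16 5′ end, so the ratio there compares separate peaks. RPL12-LRSAM1 had 74.1 and 6.22 and INTS13-FGFR1OP2 31.6 and 3.61, with summits at 48 and 128 bp and at 14 and -144 bp from the minus-strand 5′ end, and their regions held 1 and 2 TCGCGAGA words, against 0 at DCAF16-NCAPG. On the other side MRPL21-IGHMBP2 had 7.09 and 170, GIN1-PPIP5K2 3.51 and 45.0 and STMN3-RTEL1 5.63 and 72.0. In these 3 pairs the summits of the antibodies nearly coincided, at 39 and 54 bp from the MRPL21 5′ end, 68 and 74 bp from the GIN1 5′ end and 587 and 582 bp from the STMN3 5′ end, and the regions held 1, 2 and 1 ETS cores.

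The pairs with the highest CTCF folds had Sp1 folds from 4.45 to 144. TRAF6-RAG1, which joins a signalling ubiquitin ligase to a recombinase gene of lymphocytes, had CTCF folds of 188 and 137. Its summits lay at 90 and 89 bp from the TRAF6 5′ end, past the AGGGGGC word at 68 to 74 bp. Antibody 2 had a fold of 4.45 there and antibody 1 no summit. MED23-ENPP3, with a Mediator subunit gene, had 222 and 108 with CTCF, 11.8 with antibody 1 and 144 with antibody 2, and its Sp1 summits lay at 10 and 31 bp and its CTCF summits at 118 and 109 bp from the MED23 5′ end. MED20-BYSL had 169 and 134 with CTCF and 24.8 and 18.3 with Sp1, and a further annotated gene with the same 5′ end as MED20 makes an identical pair with BYSL. RBIS-CA13 had 168 and 118, beside 5.50 and 4.53 for Sp1.

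RRP9-PARP3 and MPLKIP-SUGCT were among the 5 pairs with the highest geometric mean over all 4 lists. RRP9-PARP3 had Sp1 folds of 29.8 and 14.5 and CTCF folds of 162 and 109. MPLKIP-SUGCT had 13.2 and 113 for Sp1 and 103 and 49.3 for CTCF. In both, and in MED20-BYSL, the Sp1 summits lay between the 5′ ends nearer the minus-strand gene, and the CTCF summits lay between them nearer the plus-strand gene, at 305 to 326 bp from the minus-strand 5′ end.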

How the data were processed

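Per the labels and methods, the authors trimmed reads (Cutadapt 2.6), aligned them to hg38 (Bowtie2 2.4.5), processed alignments with SAMtools 1.15.1 and removed duplicates and called peaks per library (MACS2 2.2.7.1), with versions from the submitters' processing notes. The control and cutoff used for the deposited lists are not given in the sources used here. The deposited lists give each peak's fold enrichment (a linear ratio), its −log10 p and −log10 q and its summit offset. The authors' lists end at a −log10 q of 1.30 to 1.43. All intervals fit hg38 contigs.

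Regions, GC and CpG content and words came from hg38 and GENCODE 44 (Python 3.11.15, NumPy 2.4.6, pyfaidx 0.9.0.4, statsmodels 0.14.6). A region was scored by summits, and its fold is that of its strongest summit. Of the other ends, 32 touched a pair region and 33 repeated a position and were left out. No p-value was computed. The intervals, pairing and scoring were tested on simulated data.

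Members, word lists and gene lists were chosen with earlier results of these data known. Named pairs came from a preset list of 16 where the rule held. Also named were the 5 highest by geometric mean fold for Sp1, for CTCF and for all 4 lists. So were the 3 most extreme antibody ratios each way, any pair with an IgG summit, and pairs of gene groups with under 15 pairs. Of the 8 libraries, 3 inputs were not analysed here. Alternatives changed the q limit, the overlap rule, the flank, the list size, the regions compared and the words.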

Additional observations from a re-analysis of the deposited data

How the results depend on the processing

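Of 66 alternatives to 13 results, 41 stayed within the 95% interval of the reported value. The excess of both Sp1 antibodies in pairs over other 5′ ends kept an interval above 0 in 8 of 8 alternatives, from 23.4 points in CpG-rich regions to 30.0 points against ends with no opposite start. The excess of both CTCF replicates fell to -0.129 points in CpG-rich regions, a change of sign with 0 inside the interval, and to 0.670 points [-0.302 to 2.03] with lists of equal size. That size was 5973 peaks, the length of the shortest list. It gave shares of pairs of 55.5% for antibody 1, 37.8% for both antibodies, and 3.27%, 3.04% and 3.04% for CTCF replicate 1, replicate 2 and both. A flank of 250 bp gave 62.1%, 43.7% and 38.0% for antibody 1, antibody 2 and both, 17.9%, 12.7% and 12.3% for replicate 1, replicate 2 and both, and 58.8% of Sp1 and 37.5% of CTCF summits between the 5′ ends. With 5′ ends at least 100 bp apart these last shares were 68.5% and 41.0%. Counting any overlap of the peak interval gave 27.8% for replicate 1 and 18.0% for both CTCF replicates. Counting CTCF at Sp1 pairs by a replicate 1 summit within 100 bp of the antibody 1 summit gave 5.31%. The GC box was found in 41.1% of pairs as GGGGCGGGG and in 77.3% within 100 bp of the interval.

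With 1 CTCF replicate in place of both, the share of pairs ran from 15.8% to 22.9%, the excess over other ends from 4.01 to 6.61 points, the share of Sp1 pairs with CTCF from 16.2% to 24.4% and the share of CTCF summits between the 5′ ends from 25.9% to 34.0%, with the higher shares of pairs from replicate 1. The last of these was added after the data had been seen, as were 2 checks of the distance classes, which kept the sign at 11.0 and 19.8 points against 14.8. The shorter flank and the equal lists leave fewer bases or peaks by construction. For the other changes the cause was not tested. No paired analysis was possible because the replicate numbers of CTCF are shared only with input libraries that have no peak list here. Without read depth, a missing summit does not show that a protein was absent, and each list's length sets its shares. Each Sp1 antibody rests on 1 library.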
